A study of Mus musculus with 6 samples.

Results

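The MS4A genes encode a family of small tetraspan membrane proteins, and 8 of them were examined in tumor-associated macrophages (TAMs) of the mouse: Ms4a4a, Ms4a4b, Ms4a4c, Ms4a6b, Ms4a6c, Ms4a6d, Ms4a7 and Ms4a8a. A member was taken as a row of the count table whose gene symbol equals its name. This found 7 of the 8 among 39179 rows, and all 7 were among the 8793 genes tested. No row matched Ms4a4a by symbol or by identifier, so its expression is not analysed here and it enters only the comparison of sequences.

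TAMs had been sorted from melanomas grown in C57BL/6 hosts 8 weeks old. The tumors were made from a mouse melanoma line that carries mutant Braf. In 3 libraries the tumor cells were Ptgs+/+, with working Ptgs1 and Ptgs2 genes for the cyclooxygenases COX-1 and COX-2, and in 3 libraries they were Ptgs-/-, with both genes disrupted by gene editing. The edit was in the tumor cells, so the macrophages had the host genotype in both groups. Each library was a pool of tumors, and the sort kept CD45+ CD11b+ F4/80+ cells without NK1.1 or Ly6G and with little or no Ly6C.

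As background, MS4A proteins cross the membrane several times and sit beside immune receptors, whose signals they adjust. The best known relatives are Ms4a1, which encodes the B cell protein CD20, and Ms4a2, which encodes the beta chain of the high-affinity IgE receptor of mast cells. Genes of the Ms4a4, Ms4a6 and Ms4a7 groups are used by monocytes and macrophages, and the human MS4A4A protein associates with Dectin-1 on macrophages.

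The members lie on chromosome 19 of GRCm38, within a stretch of 537379 bases (11067471 to 11604849) that they share with other genes of the family. Ms4a8a (ENSMUSG00000024730; 11067471 to 11081102) and Ms4a7 (ENSMUSG00000024672; 11321039 to 11336146) are on the minus strand. Ms4a4c (ENSMUSG00000024675; 11404770 to 11427246), Ms4a4b (ENSMUSG00000056290; 11443553 to 11467055), Ms4a6c (ENSMUSG00000079419; 11469366 to 11482192) and Ms4a6b (ENSMUSG00000024677; 11516512 to 11531256) follow on the plus strand. Ms4a6d (ENSMUSG00000024679; 11586604 to 11604849) closes the row on the minus strand. Each is a protein-coding gene, and a count gathers the reads of all its exons.

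The closest relatives among the 8 members are Ms4a4b and Ms4a4c, whose coding sequences were 91.7% identical over 678 bases. Other Ms4a genes of the cluster were not aligned. Ms4a6b was 80.1% identical to Ms4a6d and 74.7% to Ms4a6c, and Ms4a6c was 67.2% identical to Ms4a6d. Over all 28 pairs of the 8 members the median was 49.75% and the lowest value 43.5%, for Ms4a4b with Ms4a8a. The likeness of Ms4a4c and Ms4a4b extended upstream of their start sites. The 250 bases before the start were 68.8% identical between them, against at most 50% for Ms4a4c with any other member. Upstream likeness was not particular to this pair. Ms4a6c and Ms4a6b were 45.8% identical over their 250 bases but held the longer identical run, 48 bases. That run began 49 bases before the start site of Ms4a6c and 118 before that of Ms4a6b. The stretches below are shown because these neighbors were the tested pair with the highest fitted fold changes that had counts in every library. They are given 5′ to 3′ from the RefSeq windows of GRCm38.p6 on the plus strand, for Ms4a4c at chr19:11407513-11407652 (148 to 9 bases before its start site) and for Ms4a4b at chr19:11443407-11443546 (151 to 12 bases before its start site). These start sites are those of RefSeq. By the GENCODE span given above, Ms4a4c begins at 11404770, so its stretch lies inside that span. The RefSeq window of Ms4a6b, from 11518309, likewise lies after its GENCODE start at 11516512. Capitals mark the longest run of bases that both Ms4a4c and Ms4a4b hold, 20 bases.
Ms4a4c: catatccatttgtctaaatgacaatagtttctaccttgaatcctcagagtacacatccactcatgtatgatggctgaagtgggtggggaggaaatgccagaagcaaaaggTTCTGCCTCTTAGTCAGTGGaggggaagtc
Ms4a4b: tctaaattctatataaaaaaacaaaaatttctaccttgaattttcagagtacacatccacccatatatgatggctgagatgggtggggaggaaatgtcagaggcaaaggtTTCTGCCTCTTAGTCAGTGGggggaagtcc

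A pair of motif spellings was searched on both strands of the windows from 250 bases before to 50 bases after the start site, of which RefSeq gave 8 for 7 members (2 for Ms4a7, none for Ms4a6d). The core of the interferon-stimulated response element (ISRE), spelled as 2 copies of GAAA with any 2 bases between them, was in 1131 of 32851 windows of all genes (3.44%) and in 0 of these 8. The letters TTCNNNGAA, a STAT site, were in 2726 windows (8.30%) and likewise in 0 of the 8. N stands for any base. This says only that these letters are not in these windows.

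The libraries held 4431184 to 8760679 counts, and libraries within a group differed strongly (common biological coefficient of variation 1.26). Of the tested genes, 6.62 to 21.6% had 0 counts in a Ptgs+/+ library and 3.4 to 17.2% in a Ptgs-/- library. Macrophage marker genes were measured in all libraries, and their summed level was 5499 to 15610 CPM (counts scaled to library size) in Ptgs+/+ TAMs and 16690 to 20260 CPM in Ptgs-/- TAMs. Lyz2 (mean 5806 and 8057 CPM) and C1qa (3518 and 6830 CPM), which is also in the resident-type list below, gave most of this sum. Of 8 markers tested, 6 were fitted higher in Ptgs-/- TAMs and 2 lower (Mertk and Ptprc), with 0 called. Csf1r was nearly level (log2 fold change 0.07). Ptgs+/+ replicate 3 stood apart. It had the lowest total counts and the lowest macrophage sum, with 1070 counts of Csf1r against 6010 to 9498 elsewhere and 123 counts of Cd68 against 2465 to 3426. Itgam, C1qa, Fcgr1 and Lyz2 were also lowest there. Ptprc (712 counts against 549 in Ptgs-/- replicate 3) and Mertk (99.3 ± 8.87 CPM in Ptgs+/+ TAMs, SD, n = 3) did not set it apart. This library also had the highest sum of tumor and stromal cell markers, 2567 CPM. Results are therefore also given without it where they rest on it. In bulk RNA, fewer cells of a type and less RNA per cell cannot be told apart.

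No MS4A member was called changed between TAMs from Ptgs+/+ and Ptgs-/- tumors. Calls were made at an edgeR adjusted p of 0.05 or lower together with a log2 fold change of at least 1.5 up or down, and 0 of the 7 members met this, where 19 of all 8793 genes did (0.216%). The lowest adjusted p among the members was 0.488, for Ms4a6d. At an unadjusted p under 0.05 there was 1 of 7, Ms4a6d, against 8.83% of all genes. The likelihood ratio test, DESeq2 and limma voom also called 0 of the 7, where they called 2.74%, 3.83% and 1.40% of all genes with an adjusted p. The fit placed 3 members higher and 4 lower in Ptgs-/- TAMs, with a median log2 fold change of -0.03 beside 0.02 for all genes. The groups' CPM did not overlap for 1 of the 7, Ms4a4b, against 19.0% of all genes. A count of 1 among 7 genes is close to each of these background shares.

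**Figure D1:**
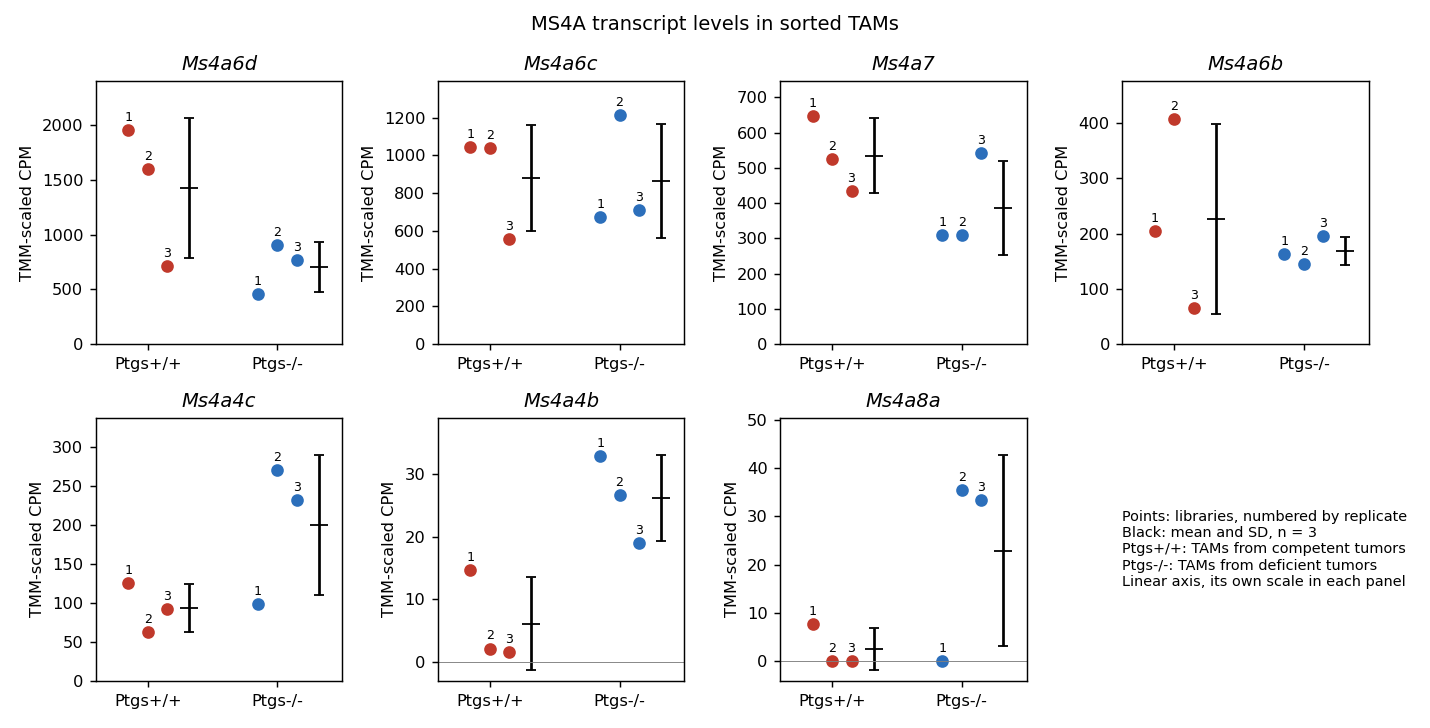
Level of each MS4A member (TMM-scaled CPM, linear axis, a separate scale in each panel) in the 3 Ptgs+/+ and 3 Ptgs-/- libraries, with points numbered by replicate and black bars for the mean and SD (n = 3). Ms4a6d ranged from 457 to 1959 CPM and overlapped between groups, whereas Ms4a4b lay at 19.0 to 32.8 CPM in Ptgs-/- TAMs, above its highest Ptgs+/+ value of 14.7.

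The members fell into 3 abundant genes, a pair of intermediate ones and a pair of rare ones. Since the libraries read the 3′ end of transcripts, counts do not grow with transcript length and are compared here as counts, not per length. Averaged over the 6 libraries, the levels were 1068 CPM for Ms4a6d, 873 for Ms4a6c, 461 for Ms4a7, 197 for Ms4a6b, 147 for Ms4a4c, 16.1 for Ms4a4b and 12.7 for Ms4a8a. Ms4a6c exceeded Ms4a7 in 6 of 6 libraries, Ms4a7 exceeded Ms4a6b in 6 of 6, and Ms4a4c exceeded Ms4a4b in 6 of 6. The other neighbors in this order changed places. Ms4a6d was above Ms4a6c in 4 of 6 libraries, Ms4a6b was above Ms4a4c in 3 of 6, and Ms4a4b was above Ms4a8a in 4 of 6. Ms4a6d ranked 127 and Ms4a6c 152 by mean level among the 8793 tested genes, so both were among the more abundant transcripts of these cells.

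Averaged over the 6 libraries, Ms4a6d was the most abundant member, but in Ptgs-/- TAMs alone Ms4a6c had the higher mean (865 against 709 CPM). Ms4a6d also had the lowest fitted fold change. Its counts were 12289, 9770 and 3325 in the Ptgs+/+ libraries (replicates 1, 2 and 3) and 2505, 7581 and 3706 in the Ptgs-/- libraries. Scaled, these were 1959, 1604 and 717 CPM against 457, 903 and 767 CPM. Ptgs+/+ replicates 1 and 2 were above every Ptgs-/- library, but replicate 3 lay inside the Ptgs-/- range. The mean was 1426 ± 640 CPM in Ptgs+/+ TAMs and 709 ± 228 CPM in Ptgs-/- TAMs (SD, n = 3 each). The log2 fold change of -1.01 ± 0.42 (SE) did not pass the edgeR test once adjusted over all genes (adjusted p = 0.488). Its unadjusted p was 0.0372 in the same edgeR fit. Without Ptgs+/+ replicate 3 it was -1.28 (edgeR adjusted p = 0.2095), and without Ptgs+/+ replicate 1 it was -0.71.

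Ms4a6c, the next most abundant member, had nearly the same mean in both groups. It had 6552, 6346 and 2580 counts in Ptgs+/+ TAMs and 3688, 10175 and 3439 in Ptgs-/- TAMs, or 1044, 1042 and 556 CPM against 673, 1212 and 712 CPM. The lowest value was in a Ptgs+/+ library and the highest in a Ptgs-/- library, and the groups overlapped throughout. The means were 881 ± 281 and 865 ± 300 CPM (SD, n = 3 each). On the log2 scale this was a change of -0.03 ± 0.37 (SE; edgeR adjusted p = 0.9995). Its direction depended on the library left out, with values from -0.35 to 0.17.

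Ms4a6b completes the Ms4a6 group. Its counts were 1281, 2482 and 307 in Ptgs+/+ TAMs and 897, 1221 and 942 in Ptgs-/- TAMs. Its levels of 204, 407 and 66.2 CPM in the Ptgs+/+ libraries enclosed all 3 Ptgs-/- values (164, 145 and 195 CPM). The Ptgs+/+ mean of 226 ± 172 CPM rested on replicate 2 and was 135 CPM without it, below the Ptgs-/- mean of 168 ± 25.0 CPM (SD, n = 3 each). Accordingly, the log2 fold change was -0.43 ± 0.57 (SE; edgeR adjusted p = 0.9995) with all libraries and 0.31 without Ptgs+/+ replicate 2.

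Ms4a7 is often used to tell monocyte-derived and border macrophages of the brain from microglia. In Ptgs+/+ TAMs it had 4058, 3193 and 2017 counts, and in Ptgs-/- TAMs 1693, 2595 and 2617. These were 647, 524 and 435 CPM against 309, 309 and 542 CPM. Ptgs-/- replicates 1 and 2 were the lowest of the 6, and replicate 3 was inside the Ptgs+/+ range. Means were 535 ± 106 and 386 ± 134 CPM (SD, n = 3 each), and the fitted change of -0.47 ± 0.35 on the log2 scale (SE; edgeR adjusted p = 0.9645) did not pass the test. It was -0.79 without Ptgs-/- replicate 3, and -0.31 without Ptgs+/+ replicate 1 or without Ptgs-/- replicate 1. Its coefficient of variation in Ptgs+/+ TAMs was 19.9%, the smallest of the members in that group.

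Ms4a4c had the next largest shift after Ms4a6d in units of its error, in the opposite direction. It had 785, 384 and 428 counts in Ptgs+/+ TAMs and 540, 2266 and 1117 in Ptgs-/- TAMs. Its level was 125, 63.0 and 92.3 CPM in the first group and 98.5, 269.8 and 231 CPM in the second. Ptgs-/- replicates 2 and 3 were above every Ptgs+/+ library, while replicate 1 was level with them. The means were 93.5 ± 31.1 and 200 ± 89.8 CPM (SD, n = 3 each). The fitted log2 change of 1.10 ± 0.50 (SE) did not pass the test (edgeR adjusted p = 0.572).

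Ms4a4b, best known from T cells, where its protein associates with the costimulatory receptor GITR, was rare in these macrophages. It had 92, 13 and 7 counts in Ptgs+/+ TAMs and 180, 224 and 92 in Ptgs-/- TAMs, or 14.7, 2.13 and 1.51 CPM against 32.8, 26.7 and 19.0 CPM. All Ptgs-/- libraries were above all Ptgs+/+ libraries, as for 19.0% of the tested genes. The means were 6.10 ± 7.42 and 26.2 ± 6.92 CPM (SD, n = 3 each). The fitted log2 change was 2.10 ± 1.80 (SE; edgeR adjusted p = 0.9995). The Ptgs+/+ mean rested on replicate 1 and was 1.82 CPM without it, and the log2 fold change was then 3.83 (edgeR adjusted p = 0.439). T cell markers were measured beside it. Of 11 listed, 7 (Lck, Cd8a, Cd4, Cd3g, Cd3e, Cd5 and Cd6) were at 0 counts in every library, and the list summed to 0 to 66.1 CPM in Ptgs+/+ TAMs and 43.5 to 93.2 CPM in Ptgs-/- TAMs. Of 10 NK cell markers, 6 were at 0 in every library, Ncr1, Prf1 and Gzmb among them, and the list summed to 2.07 to 2.37 and 0.621 to 21.9 CPM. The 3 T cell markers tested were fitted higher in Ptgs-/- TAMs and not called: Cd28, with 0, 2 and 0 counts against 109, 86 and 61, had groups that did not overlap, as Ms4a4b did, while those of Cd2 and Il7r overlapped. The part of T cells and NK cells in the level of Ms4a4b was not tested.

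Ms4a8a, described in alternatively activated macrophages and in epithelium, was found in 3 of the 6 libraries. It had 48, 0 and 0 counts in Ptgs+/+ TAMs and 0, 298 and 161 in Ptgs-/- TAMs, or 7.65, 0 and 0 CPM against 0, 35.5 and 33.3 CPM. Each group therefore held a library with and a library without the transcript. In the libraries with 0 counts, 3 counts would be 0.4895 CPM (Ptgs+/+ replicate 2), 0.677 CPM (Ptgs+/+ replicate 3) and 0.571 CPM (Ptgs-/- replicate 1) before TMM scaling, and a count of 0 allows a level of up to these values for counting error only. The fitted log2 fold change was 3.16 ± 2.93 (SE; edgeR adjusted p = 0.9995). It was 10.08 without Ptgs+/+ replicate 1 (edgeR adjusted p = 0.394), which leaves the Ptgs+/+ group at 0 counts, and 7.90 with a replicate block, so its size is not fixed by these data. It had passed the filter on low counts through the libraries in which it was present.

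**Figure D2:**
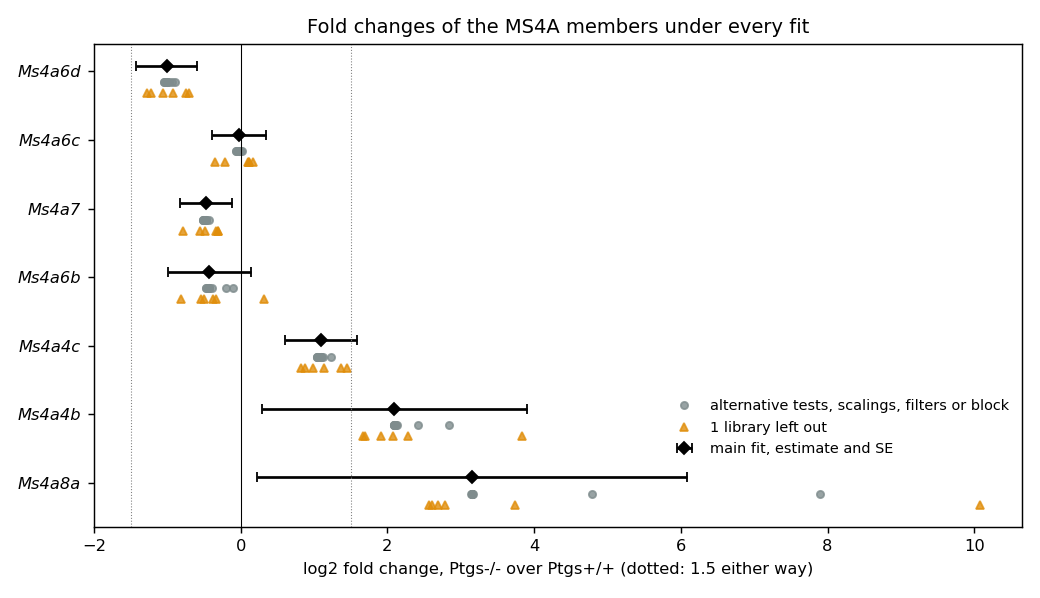
Log2 fold change of each member, Ptgs-/- over Ptgs+/+ TAMs. Black diamonds with bars give the edgeR estimate and SE, grey circles other tests, scalings, filters or the replicate block, orange triangles fits without 1 library, and dotted lines a change of 1.5 in either direction. Ms4a6d stayed below 0 in all 15 alternatives (-1.28 to -0.71) and Ms4a4c above 0 (0.82 to 1.45), while Ms4a6c lay on either side.

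Summed over the family, the 7 members took 25105, 22188 and 8664 counts in Ptgs+/+ TAMs and 9503, 24360 and 12074 in Ptgs-/- TAMs. This was 0.379, 0.362 and 0.196% of the library in the first group and 0.181, 0.278 and 0.236% in the second. The summed levels of 4001, 3642 and 1868 CPM overlapped those of 1734, 2901 and 2498 CPM. The means were 3170 ± 1142 and 2378 ± 593 CPM (SD, n = 3 each), a ratio of 0.750. Fitted as 1 row, the sum changed by -0.41 ± 0.37 on the log2 scale (SE; edgeR adjusted p = 0.9995) and did not pass the test. It was -0.21 without Ptgs+/+ replicate 1, -0.20 without Ptgs-/- replicate 1 and -0.63 without Ptgs+/+ replicate 3, and the ratio of means ranged from 0.622 to 0.863 when 1 library was left out. A sum over paralogs does not depend on how reads were divided among them. The Ms4a4 genes summed to 99.6 ± 37.6 CPM in Ptgs+/+ TAMs and 226 ± 85.2 CPM in Ptgs-/- TAMs (SD, n = 3 each; log2 fold change 1.18 ± 0.47 SE, edgeR adjusted p = 0.435). The Ms4a6 genes summed to 2533 ± 1037 and 1742 ± 487 CPM (SD, n = 3 each; log2 fold change -0.54 ± 0.39 SE, edgeR adjusted p = 0.954). Neither sum passed the test. Close paralogs can lose or exchange reads in counting. Of all 50-base words in the last 300 bases of the coding transcripts, 8.5% of those of Ms4a4c also occurred in Ms4a4b or Ms4a4d and 9.16% of those of Ms4a6c in Ms4a6b, with 0 shared for the other members.

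Within the family, Ms4a6d made up a smaller part of the MS4A counts, and Ms4a4c and Ms4a4b a larger part, in every Ptgs-/- library than in any Ptgs+/+ library. Each member's counts were expressed as a percentage of all MS4A counts of the same library, a value that does not depend on scaling between libraries. Ms4a6d took 49.0, 44.03 and 38.4% in Ptgs+/+ TAMs and 26.4, 31.1 and 30.7% in Ptgs-/- TAMs. Every Ptgs+/+ library was thus above every Ptgs-/- library, replicate 3 included, with means of 43.8% ± 5.29 and 29.4% ± 2.63 (SD, n = 3 each). Ms4a4c took 3.13, 1.73 and 4.94% against 5.68, 9.30 and 9.25%, and again the groups were apart, at 3.27% ± 1.61 and 8.08% ± 2.08 (SD, n = 3 each). Ms4a4b took 0.367, 0.0586 and 0.0808% against 1.89, 0.920 and 0.762%.

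The shares of Ms4a6c, Ms4a7, Ms4a6b and Ms4a8a overlapped between groups. Ms4a6c took 26.1, 28.6 and 29.8% against 38.8, 41.8 and 28.5%, so that only Ptgs-/- replicates 1 and 2 were above the Ptgs+/+ range. Ms4a7 took 16.2, 14.4 and 23.3% against 17.8, 10.7 and 21.7%. In all, the shares of 3 of the 7 members did not overlap, where counts set against the MS4A total in the same way did not overlap for 19.8% of all tested genes. Shares of 1 whole are bound to each other, so a lower share of Ms4a6d raises the rest. With 3 libraries against 3, an exact permutation test cannot give a p below 0.1, and the shares are given as a description.

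**Figure D3:**
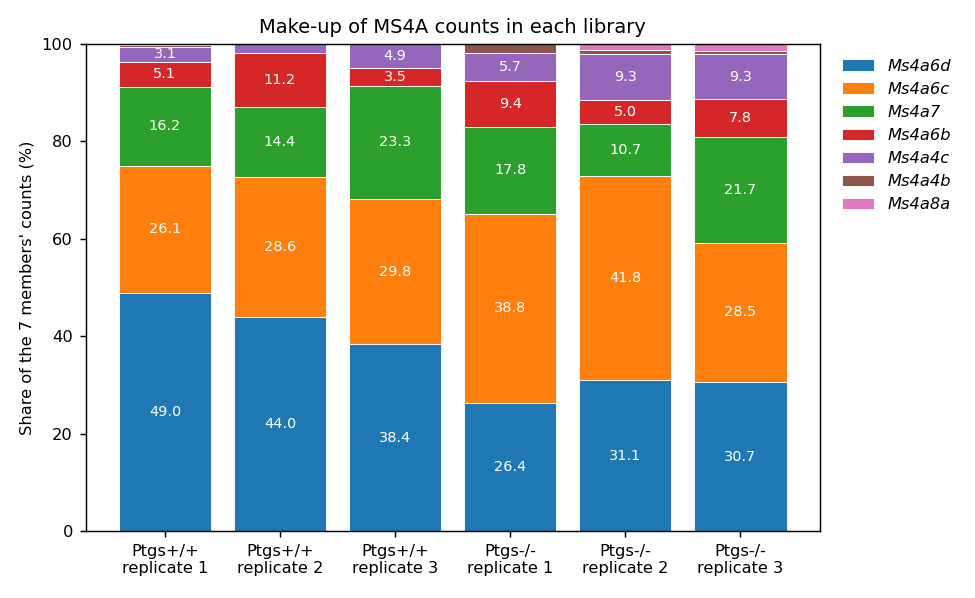
Share of each member in the MS4A counts of a library (%, stacked to 100), for 3 Ptgs+/+ and 3 Ptgs-/- libraries; values of 3% or more are printed. The lowest block, Ms4a6d, is 38.4 to 49.0% in Ptgs+/+ TAMs and 26.4 to 31.1% in Ptgs-/- TAMs, and the Ms4a4c block is wider in every Ptgs-/- library.

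Ratios between pairs of members, taken within a library, are free of the bond between shares. Ms4a6d gave 1.88, 1.54 and 1.29 counts per count of Ms4a6c in Ptgs+/+ TAMs and 0.679, 0.745 and 1.08 in Ptgs-/- TAMs. The more abundant of the pair was Ms4a6d in all Ptgs+/+ libraries and Ms4a6c in Ptgs-/- replicates 1 and 2, and the groups did not overlap (1.57 ± 0.295 against 0.834 ± 0.214, SD, n = 3 each). Ms4a4c gave 0.193, 0.120 and 0.212 counts per count of Ms4a7 in Ptgs+/+ TAMs and 0.319, 0.873 and 0.427 in Ptgs-/- TAMs, also without overlap. By contrast, Ms4a7 per Ms4a6c (0.635 ± 0.140 against 0.492 ± 0.255) and Ms4a6b per Ms4a6c (0.235 ± 0.140 against 0.212 ± 0.0815; SD, n = 3 each) overlapped. Of the 15 pairs among the 6 members with counts in every library, the ratio did not overlap for 7, compared with 19.9% of all pairs of tested genes with counts in every library. The 7 pairs share members, so they are not separate observations. They were Ms4a4c with Ms4a7 and Ms4a6d, Ms4a4b with Ms4a7, Ms4a6c, Ms4a6b and Ms4a6d, and Ms4a6c with Ms4a6d.

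**Figure D4:**
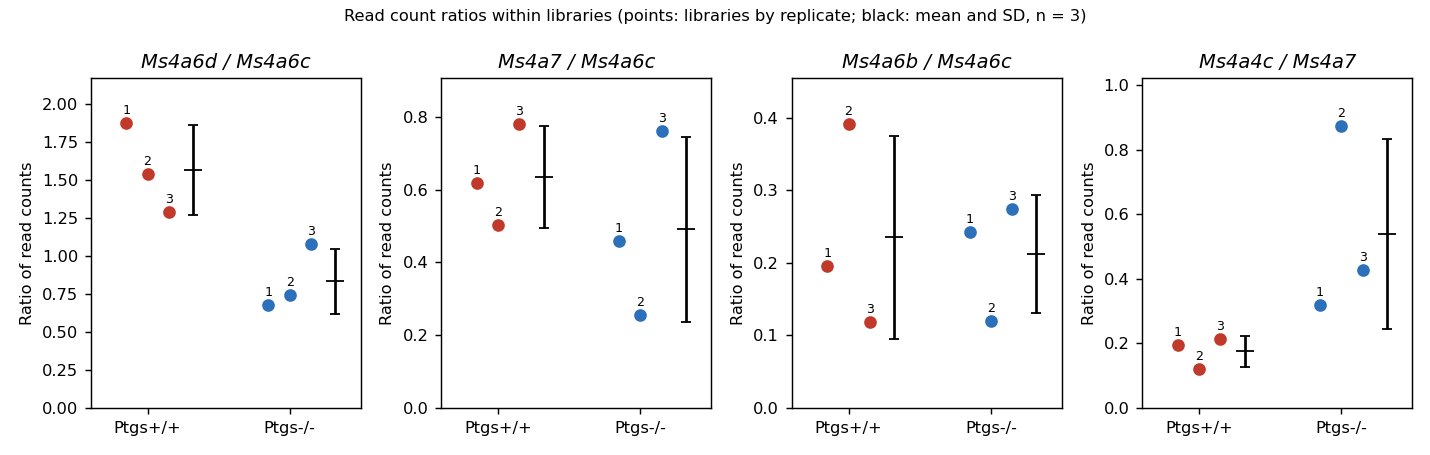
Read count ratios between members within each library, with points numbered by replicate and black bars for the mean and SD (n = 3). The Ms4a6d to Ms4a6c ratio was 1.29 to 1.88 in Ptgs+/+ TAMs and 0.679 to 1.08 in Ptgs-/- TAMs, and the Ms4a4c to Ms4a7 ratio also separated the groups, while Ms4a7 and Ms4a6b relative to Ms4a6c overlapped.

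The members did not vary as 1 block across the libraries. Over the 6 libraries, which differ in group and in depth, the log2 levels of Ms4a6d correlated with those of Ms4a7 (Pearson r = 0.730), Ms4a6c (r = 0.679) and Ms4a6b (r = 0.543). Ms4a4c went with Ms4a8a (r = 0.928) and Ms4a4b (r = 0.668), and Ms4a7 with Ms4a4b gave r = -0.368. These values describe 6 points, and Ms4a8a had counts in only 3 of the 6 libraries. By the same measure, the genes outside the family most like Ms4a6d were Pdpn, which encodes podoplanin (r = 0.999), Edc3 (r = 0.984) and Anapc5 (r = 0.979). Those most like Ms4a6c were Psme4 (r = 0.982), Nrf1 (r = 0.981) and Eif1b (r = 0.975), and those most like Ms4a7 were the neutrophil collagenase gene Mmp8 (r = 0.988), Dok3 (r = 0.970) and Abcb1a (r = 0.967). With 8793 genes over 6 libraries, values above 0.9 were reached by 47 genes for Ms4a6d, 70 for Ms4a6c and 27 for Ms4a7.

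The other Ms4a genes with a row had next to no counts in TAMs. The annotation holds 19 Ms4a genes in this cluster, of which 16 had a row. Ms4a1, Ms4a2, Ms4a3, Ms4a5, Ms4a10, Ms4a13, Ms4a15 and Ms4a18 had 0 counts in every library, and Ms4a4d had 1 count in all, in Ptgs+/+ replicate 3. The zero counts of Ms4a1 and Ms4a2 are those of the defining genes of B cells and of mast cells and basophils. Related membrane proteins are encoded by Tmem176a and Tmem176b, neighbors on chromosome 6 whose ends overlap on opposite strands. Tmem176b had 127, 1973 and 272 counts in Ptgs+/+ TAMs and 3046, 3517 and 2539 in Ptgs-/- TAMs, or 134 ± 165 and 500 ± 71.9 CPM (SD, n = 3 each). Its Ptgs+/+ mean rested on replicate 2 and was 39.4 CPM without it. Tmem176a had 133, 31 and 13 counts against 440, 797 and 880, or 9.70 ± 10.03 and 119 ± 55.05 CPM (SD, n = 3 each), and its Ptgs+/+ mean was 3.95 CPM without replicate 1. For both, every Ptgs-/- library was above every Ptgs+/+ library, and neither passed the test (log2 fold change 1.90 ± 0.80 SE with an edgeR adjusted p of 0.496 for Tmem176b, and 3.61 ± 0.93 SE with 0.197 for Tmem176a).

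The genes around the cluster were looked at in the same way. Outside the family, 66 genes lay within 500 kb of the members, 45 had a row and 11 were tested. Of these, 0 were called, 4 were fitted higher and 7 lower in Ptgs-/- TAMs, and the CPM of 2 did not overlap between groups, a share like the 19.0% of all genes. These 2 were Ddb1, a DNA repair and ubiquitin ligase subunit (log2 fold change -0.79 ± 0.34 SE, edgeR adjusted p = 0.528), and Mrpl16, a mitochondrial ribosomal protein (1.95 ± 1.72 SE, edgeR adjusted p = 0.9995). The others were Vps37c, Ccdc86 and AW112010, fitted higher, and Dak, Slc15a3, Tmem109, Prpf19, Stx3 and Patl1, fitted lower.

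Receptors and adaptors with which MS4A proteins are linked were measured alongside. Of 14 genes listed (the Dectin-1 gene Clec7a, Trem2, its adaptor Tyrobp, the Fc receptor chain Fcer1g and others), 0 were called, 13 were fitted higher in Ptgs-/- TAMs and the median log2 fold change was 0.46, beside 0.02 for all genes. The smallest p were those of Apoe, an apolipoprotein (log2 fold change 0.90 ± 0.40 SE, edgeR adjusted p = 0.5515), Grn, Fcgr3 and Plcg2. Clec7a was at 75.0 ± 11.6 CPM in Ptgs+/+ and 115 ± 71.4 CPM in Ptgs-/- TAMs, Trem2 at 179 ± 53.0 and 220.4 ± 19.3 CPM, and Tyrobp at 1075 ± 209 and 1155 ± 235 CPM (SD, n = 3 each). None of the 3 differed beyond the spread between libraries.

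Lists of other macrophage programs from the same libraries are given for comparison. Of 28 interferon-inducible genes tested, 0 were called and all 28 were fitted higher in Ptgs-/- TAMs, with a median log2 fold change of 1.64. Rsad2 (3.27 ± 0.60 SE) and Ly6a (2.19 ± 0.41 SE) had an edgeR adjusted p of 0.0762 each, and Ifit2 (6.97 ± 1.45 SE) and Tap1 (2.01 ± 0.43 SE) followed at 0.105 and 0.112. Of 25 genes of resident-type macrophages tested, 6 rose and 0 fell by the test, 22 were fitted higher and 3 lower, and the median was 1.95. The chemokine gene Pf4 was fitted lower (-1.55 on the log2 scale, 8498 ± 2743 CPM in Ptgs+/+ and 2909 ± 320 CPM in Ptgs-/- TAMs; SD, n = 3 each) and did not pass the test (edgeR adjusted p = 0.136). The lectin Clec10a (3.93 ± 0.40 SE), the scavenger-type protein Cd5l (1, 0 and 3 counts against 974, 1257 and 1545) and Retnla (3.91 ± 0.40 SE) each had an edgeR adjusted p of 0.00453, and the selenoprotein Sepp1 (2.73 ± 0.38 SE) had 0.0324. Set beside these lists, the median of the MS4A members was -0.03, and Ms4a4c, Ms4a4b and Ms4a8a were the members fitted in the same direction as both lists.

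Markers of other cells were summed in each library for comparison. Of 5 monocyte markers tested, 3 were fitted higher and 2 lower (Vcan and Treml4), and Plac8 alone passed the test (log2 fold change 3.20 ± 0.42 SE, edgeR adjusted p = 0.02296). The list, to which Plac8 and Ccr2 gave most counts, summed to 258 to 537 CPM in Ptgs+/+ and 1475 to 2368 CPM in Ptgs-/- TAMs. Ly6c2, the monocyte gene for the gated Ly6C protein, had 309, 206 and 1 counts against 529, 2373 and 1154. Tumor and stromal markers summed to 675 to 2567 CPM in Ptgs+/+ and 136 to 221 CPM in Ptgs-/- TAMs, with 11 of 12 tested fitted lower, 0 called, and 10 of 24 at 0 in every library, among them the melanocyte genes Mlana, Pmel, Dct, Tyr, Tyrp1 and Sox10. The 1 fitted higher was Mitf, another melanocyte gene, with 12, 0 and 3 counts against 58, 372 and 88 (log2 fold change 4.80 ± 2.43 SE, edgeR adjusted p = 0.703). Neutrophil markers (9 listed, with Elane, Mpo and Ly6g at 0) summed to 540 to 709 and 439 to 532 CPM. Of the 5 tested, 2 were fitted higher (Retnlg and Csf3r) and 3 lower (S100a8, S100a9 and Cxcr2), with 0 called. Dendritic cell markers (8 listed, with Zbtb46, Xcr1 and Ccr7 at 0) summed to 140.3 to 358 and 64.8 to 134 CPM, mostly from Itgax (mean 217 and 84.3 CPM), which macrophages also express and which was the 1 tested. B cell markers (7 listed, 5 at 0) summed to 0 to 26.7 and 15.0 to 106 CPM. The tested ones were Ighm (0, 0 and 0 counts against 82, 137 and 433) and Cd79b (46, 163 and 0 against 0, 124 and 79), and neither was called. Mast cell and basophil markers (8 listed, 4 at 0) summed to 74.1 to 108.5 and 13.7 to 34.4 CPM, with Hdc, fitted lower and not called, as the 1 tested. The part of these markers in the make-up of the MS4A counts was not tested. Without Ptgs+/+ replicate 3, the library with the most tumor and stromal signal, the mean Ptgs+/+ share was 46.5% for Ms4a6d, 2.43% for Ms4a4c and 0.212% for Ms4a4b, and the mean of Ms4a6d counts per Ms4a6c count was 1.71.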

How the data were processed

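Polyadenylated RNA of 6 TAM libraries (3 Ptgs+/+, 3 Ptgs-/-) had been sequenced from the 3′ end (QuantSeq FWD), and molecular identifiers were not mentioned, so intervals and floors cover counting error only. The authors trimmed the reads, aligned them with STAR to GRCm38 and deposited raw counts per gene from featureCounts; strand and multi-mapping settings were not given in the sources used here. The analysis used edgeR 4.0.16 under R 4.3.3: filterByExpr at its defaults (minimum count 10, minimum total 15), TMM scaling and the two-sided quasi-likelihood test over 8793 genes, with Benjamini-Hochberg adjustment. The thresholds (adjusted p 0.05, log2 fold change 1.5) are those of the study. Fold changes are Ptgs-/- over Ptgs+/+. Levels are TMM-scaled CPM, and correlations used log2 CPM with a prior count of 2. Alternatives used limma 3.58.1, DESeq2 1.42.0, other scalings and filters, a replicate block, and each library left out. The members, gene lists and alternatives were chosen with earlier results of these data known. All members were named; from each gene list (partners, interferon-inducible, resident-type macrophage) the 4 genes with the smallest p were named. Clec7a, Trem2, Tyrobp, Fcer1g and Pf4, and all genes named from the cell type marker lists (all those not at 0 included), are outside this rule and were chosen after their values were seen. Gene positions are from GENCODE M21, which uses GRCm38. Coding sequences, built from the same annotation and assembly, were aligned globally with Biopython 1.88. The code was tested on simulated counts. P-values measure only the spread between these tumor pools.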

Additional observations from a re-analysis of the deposited data

How the results depend on the processing

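In all 15 alternatives, 0 MS4A members were called. The directions of Ms4a6d, Ms4a7, Ms4a4c, Ms4a4b and Ms4a8a were the same in every one of them. Ms4a6c reversed with limma voom (0.0043 on the log2 scale, with a median of 0.39 over all genes tested) and with upper quartile scaling (0.0122), and ranged from -0.35 to 0.17 when 1 library was left out (0.12 without Ptgs+/+ replicate 1, 0.11 without Ptgs+/+ replicate 2, 0.17 without Ptgs-/- replicate 1 and 0.10 without Ptgs-/- replicate 3). Ms4a6b ranged from -0.81 to 0.31 in those fits and reversed without Ptgs+/+ replicate 2. The number of genes called among all tested was 19; it was 241 with the likelihood ratio test, 328 with DESeq2, 123 with limma voom, 252 without a filter beyond 1 count, and 0 to 25 when 1 library was left out. The cause was not tested.

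Replicate numbers are shared by the groups, but libraries with the same number did not deviate together (correlations -0.049, -0.022 and -0.022). With a replicate block, 77 genes and 0 members were called, and the members' median log2 fold change was -0.02, beside 0.26 for all genes in that fit.

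At 3 libraries a group and this spread, a change the size of that of Ms4a6d did not pass the test. Ms4a4b and Ms4a8a rest on few counts, and their fitted fold changes had standard errors of 1.80 and 2.93.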
